A study of Homo sapiens with 12 samples.

Results

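Cholesterol and fatty acid synthesis genes were followed in MV3 cells, a human melanoma line first grown out of a metastasis in a lymph node, across 4 culture media. The set held 33 genes of the 58288 gene identifiers in the count table, chosen by name from the sterol and fatty acid pathways: 21 enzymes of acetyl-CoA supply and cholesterol synthesis, 5 regulators of the sterol response, 3 enzymes of fatty acid synthesis, 2 exporters (ABCA1 and ABCG1) and 2 carriers of cholesterol within the cell (NPC1 and STARD4). The choice used names and no threshold on a measured value, but earlier results of these data were known when it was made. Of these, 32 passed the filter on low counts, and ABCG1 did not.

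The M1 group received medium conditioned by THP-1 macrophages, made from a monocytic leukaemia line with the phorbol ester PMA and then polarized with LPS and IFNγ. In the M2 group the macrophages had been polarized with IL4 and IL13 after PMA, and in the M0 group they had received PMA alone. The Ctrl group received fresh RPMI medium that no cells had conditioned. The cells of all 12 samples came from the same line and were grown with 10% serum in DMEM. They spent 3 h in RPMI with 1% serum and then 24 h in the test medium, with n = 3 per group. The lipid and serum content of the conditioned media is not given, so in every comparison with Ctrl the spent medium and the products of the macrophages cannot be told apart. Carry-over of the stimulants was not measured, and nothing in the labels says that the replicates were separate cultures, and the p-values then cover only the spread among these 12 samples, which may be technical.

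Cells build cholesterol from acetyl-CoA through mevalonate, farnesyl pyrophosphate, squalene and lanosterol. When sterols in the endoplasmic reticulum are scarce, SCAP carries the SREBP transcription factors to the Golgi for cleavage, and the freed factors raise the synthesis genes; when sterols are plentiful, INSIG proteins hold SCAP back. Oxysterols also activate the liver X receptors, which raise exporters such as ABCA1, a pump that loads cholesterol and phospholipid onto apolipoprotein A-I. Tumour cells draw on the same routes for membranes, isoprenoids and storage lipid.

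Library totals ran from 21788397 to 42921242 counts. Macrophage markers summed to 1.28 to 1.60 CPM (read counts scaled to library size with TMM) in M1, 0.868 to 1.38 in M2, 1.07 to 1.35 in M0 and 0.969 to 1.19 in Ctrl, with 1 of 14 (MSR1) above the filter and 2 at 0 in every library. MV3 showed little of the pigment programme: 1 of 8 melanocytic markers (MITF) passed the filter, and the list summed to 1.88 to 2.43 CPM in M1, 2.16 to 2.32 in M2, 3.01 to 3.37 in M0 and 0.837 to 1.51 in Ctrl. Of 6 markers of dedifferentiated melanoma, 5 passed, with sums of 1805 to 1922 CPM in M1 and 2626 to 3385 in the other groups. AXL made up most of that sum, at a mean of 1254 CPM in M1, 1792 in M2, 2126 in M0 and 2444 in Ctrl, while TNC (310 in M1, 666 in M2, 189 in M0 and 70.1 in Ctrl) and WNT5A (87.9 in M1, 46.4 in M2, 42.6 in M0 and 79.3 in Ctrl) did not follow it. M2 replicate 2 stood apart: 3759 genes had reads there and nowhere else, where each of the other 11 libraries had 160 to 453 such genes.

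Most enzymes of cholesterol synthesis were lower in each conditioned medium than in fresh medium, while ABCA1 was far higher, and NPC1, SREBF1 and SREBF2 were higher too. In M0 against Ctrl, 2 synthesis enzymes rose (GGPS1 and SC5D), 15 fell and 4 did not pass an adjusted p of 0.05. Over all 32 genes tested, 6 rose and 20 fell, where 31.1% of all 14088 genes tested rose, 30.6% fell and 61.7% were called in either direction. The median log2 fold change of the 21 enzymes was -0.68, beside 0.00 for all genes. RNA came from whole cultures, so fewer expressing cells and less RNA per cell cannot be told apart.

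In M1 against Ctrl, 3 of the 21 enzymes rose (GGPS1, SQLE and SC5D), 14 fell and 4 did not pass, with a median log2 fold change of -0.62. Over the 32 genes 9 rose and 17 fell, against 35.2% of all genes higher, 35% lower and 70.2% in either direction. In M2 against Ctrl, 2 enzymes rose (GGPS1 and SC5D), 16 fell and 3 did not pass, with a median of -0.82. Over the 32 genes 7 rose and 20 fell, against 34.1% of all genes higher, 32.4% lower and 66.5% in either direction. The 3 comparisons share the same Ctrl libraries and so are not independent of each other. M1 and Ctrl libraries did not overlap in 25 of the 32 genes, against 71.3% of all genes, M2 and Ctrl in 28, against 71.5%, and M0 and Ctrl in 26, against 64.4%.

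**Figure D1:**
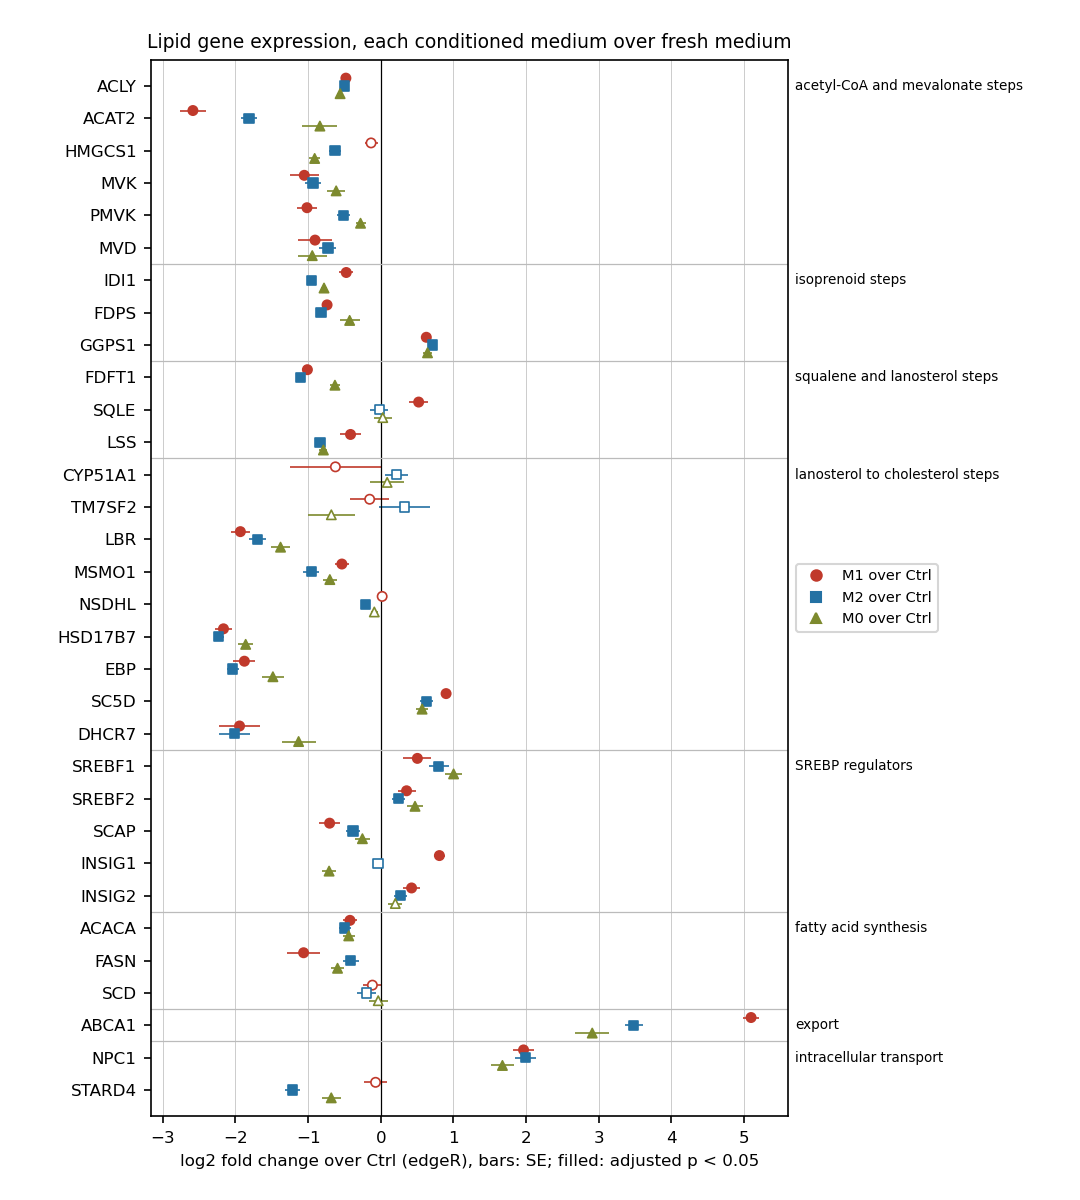
Log2 fold change of each of 32 lipid genes (x axis) in M1, M2 and M0 over Ctrl, in pathway order down the page. Points are edgeR estimates, bars are SE from 3 and 3 libraries, and filled points have an adjusted p under 0.05. Most synthesis enzymes lie left of 0, down to -2.58 for ACAT2 in M1, and ABCA1 lies furthest right, at 5.10 in M1, 3.48 in M2 and 2.91 in M0.

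Between conditioned media the enzymes moved in both directions. In M1 against M0, 5 enzymes rose (HMGCS1, IDI1, SQLE, LSS and SC5D), 8 fell (ACAT2, MVK, PMVK, FDPS, FDFT1, LBR, EBP and DHCR7) and 8 did not pass, with a median log2 fold change of -0.02. Over the 32 genes 9 rose and 11 fell, against 25.5% of all genes higher, 26.7% lower and 52.2% in either direction. In M1 against M2, 7 enzymes rose (HMGCS1, IDI1, SQLE, LSS, MSMO1, NSDHL and SC5D) and 2 fell (ACAT2 and PMVK), with 12 not passing. Over the 32 genes 10 rose and 4 fell, against 15.9% of all genes higher, 16.6% lower and 32.5% in either direction.

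In M2 against M0, 1 enzyme rose (HMGCS1), 6 fell (ACAT2, FDPS, FDFT1, LBR, EBP and DHCR7) and 14 did not pass. Over the 32 genes 4 rose and 7 fell, against 12.5% of all genes higher, 12.7% lower and 25.2% in either direction. That comparison leaned on single libraries: leaving out M0 replicate 1 gave 7 called genes of the set, M0 replicate 3 gave 5, M2 replicate 2 gave 6 and M2 replicate 3 gave 7. With M0 replicate 3 and M2 replicate 2 left out together, 3 were called. These were ABCA1 and INSIG1, which were higher in M2, and FDFT1, which was lower. A joint test of any difference among M1, M2 and M0 called 22 of 32 genes, against 56.6% of all genes. M1 and M0 did not overlap in 23 of the 32 genes, against 59.2% of all genes, M2 and M0 in 20, against 46.5%, and M1 and M2 in 18, against 50.1%.

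**Figure D2:**
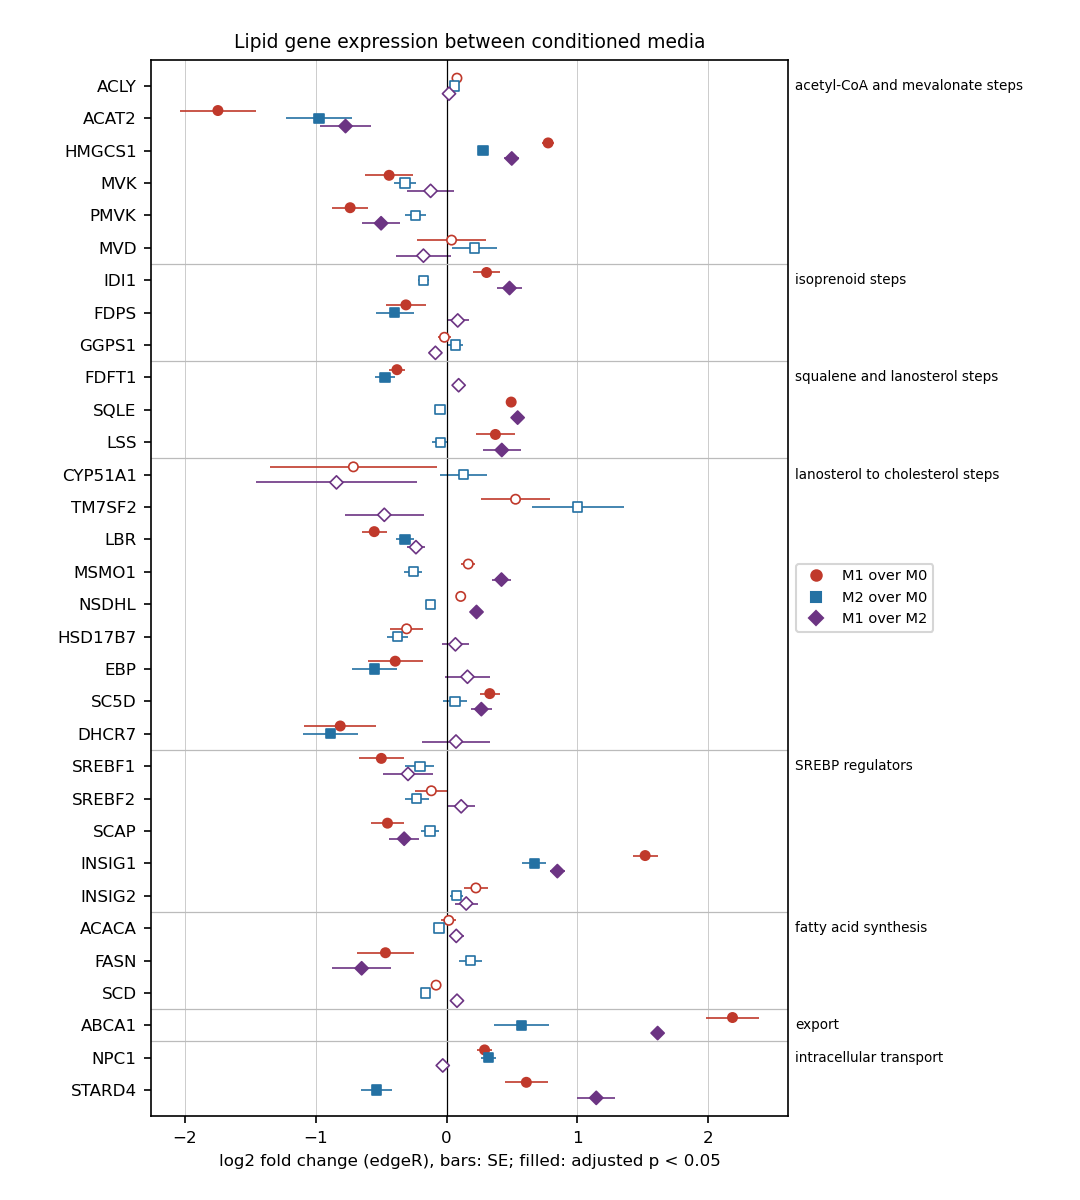
Log2 fold change of each of 32 lipid genes (x axis) between conditioned media, for M1 over M0, M2 over M0 and M1 over M2, in pathway order. Points are edgeR estimates, bars are SE from 3 and 3 libraries, and filled points have an adjusted p under 0.05. INSIG1 and ABCA1 lie to the right in all 3 comparisons, ACAT2 lies to the left in all 3, and STARD4 lies on opposite sides for M1 and M2 over M0.

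ABCA1, the cholesterol and phospholipid exporter, changed most of the set. The gene (ENSG00000165029.15) lies at chr9:104781002-104928237 on the minus strand of GRCh38. It had 705, 682 and 676 CPM in the M1 libraries, 218, 218 and 238 in M2, 164, 178 and 112 in M0, and 23.1, 19.5 and 17.6 in Ctrl. No 2 groups overlapped, and M0 replicate 3 was the lowest of the conditioned libraries. ABCA1 was 34.2-fold higher in M1 than in Ctrl (log2 5.10 ± 0.12 SE, adjusted p = 2.09e-13), 11.2-fold higher in M2 (3.48 ± 0.12, adjusted p = 1.58e-11) and 7.52-fold higher in M0 (2.91 ± 0.23, adjusted p = 1.29e-10). M1 exceeded M0 by 4.55-fold (adjusted p = 4.22e-09) and M2 by 3.06-fold (adjusted p = 1.41e-07). M2 exceeded M0 by 1.49-fold (log2 0.57 ± 0.21, adjusted p = 0.00565), or by log2 0.40 without M0 replicate 3.

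ABCG1, which passes cholesterol on to HDL particles, was hardly read at all. It had 1 read over the 3 libraries of M1, 1 in M2, 2 in M0 and 1 in Ctrl. All are below the 3 counts that a count of 0 allows in a single library, so no fold is given, and a difference between media was not detectable at this depth. Of the pair of exporters, the change was therefore measurable in ABCA1 alone.

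The ABCA1 promoter is printed because it carries the largest change, and 3 others to set it beside a synthesis gene that fell in every conditioned medium (DHCR7) and 2 genes that were higher in M1 than in M0 (INSIG1 and HMGCS1). Each is the 250 bases before the RefSeq start on GRCh38.p14, 5′ to 3′ on the gene's own strand. Capitals mark CCAAT boxes (CCAAT, or ATTGG on the other strand), the E-box CACGTG, and a direct repeat of the kind that liver X receptors are known to bind.
ABCA1 (chr9:104928156-104928405, minus strand): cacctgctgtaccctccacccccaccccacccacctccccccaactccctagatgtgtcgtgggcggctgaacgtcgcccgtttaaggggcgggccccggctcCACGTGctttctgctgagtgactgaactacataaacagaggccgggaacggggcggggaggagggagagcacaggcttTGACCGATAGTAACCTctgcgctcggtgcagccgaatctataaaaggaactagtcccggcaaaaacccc
INSIG1 (chr7:155297628-155297877, plus strand): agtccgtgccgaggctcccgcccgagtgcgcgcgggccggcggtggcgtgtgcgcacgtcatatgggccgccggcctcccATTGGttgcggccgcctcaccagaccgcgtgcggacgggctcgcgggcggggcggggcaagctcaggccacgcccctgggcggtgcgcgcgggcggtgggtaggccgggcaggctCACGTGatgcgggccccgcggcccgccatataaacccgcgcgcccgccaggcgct
HMGCS1 (chr5:43313413-43313662, minus strand): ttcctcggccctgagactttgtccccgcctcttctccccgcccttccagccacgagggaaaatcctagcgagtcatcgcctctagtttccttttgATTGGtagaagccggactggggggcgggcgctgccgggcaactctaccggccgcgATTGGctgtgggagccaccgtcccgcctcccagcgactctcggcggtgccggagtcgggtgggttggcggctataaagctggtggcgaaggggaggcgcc
DHCR7 (chr11:71448394-71448643, minus strand): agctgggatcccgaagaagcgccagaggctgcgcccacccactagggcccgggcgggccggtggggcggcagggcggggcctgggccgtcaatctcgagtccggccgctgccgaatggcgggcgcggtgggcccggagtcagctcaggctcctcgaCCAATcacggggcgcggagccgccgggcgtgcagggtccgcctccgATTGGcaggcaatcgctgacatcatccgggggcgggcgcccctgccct

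Promoter windows of 250 bases before to 50 after the start were held by RefSeq for 28 of the 33 genes; ACAT2, FDFT1, SQLE, FASN and ABCG1 were not matched. The direct repeat was AGGTNA and NGGTCA with 4 bases between, searched on both strands like all other motifs. It was found in ABCA1 alone of the 28, on the strand opposite to the gene, 69 to 54 bases before the start. It stood in 7 of 9769 promoters of genes tested (0.0717%). The letters left open (N) are those where the ABCA1 site differs from AGGTCA, so its match was fixed by the pattern searched. The rarity of the pattern therefore carries no weight for ABCA1. A CCAAT box, the element that NF-Y binds beside SREBP sites, was in 17 of 28 windows (60.7%), of which 13 were among 18 synthesis enzymes, against 36.8% of the 9769. The core sterol element TCACNCCAC was in 1 window (SREBF2), against 1.02% of the 9769. CACGTG was in 5 of 28, against 10.4%, and the half-site AGGTCA in 1 (LBR), against 9.33%. These are letter matches, and no binding was measured.

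Acetyl-CoA and mevalonate steps fell in all but 1 case against Ctrl. Of these 6 enzymes all 6 fell in M2, 5 in M1 and 6 in M0, the exception being HMGCS1 in M1. Of all genes tested, 32.4% fell in M2, 35% in M1 and 30.6% in M0. ACAT2, the cytosolic thiolase that joins acetyl-CoA units, had 8.88, 5.92 and 7.34 CPM in M1, 14.3, 11.7 and 11.9 in M2, 24.8, 18.0 and 31.6 in M0, and 42.5, 43.3 and 47.7 in Ctrl. The 4 groups did not overlap, with M1 lowest, then M2, then M0, and Ctrl highest. ACAT2 was 6.0-fold lower in M1 than in Ctrl (log2 -2.58 ± 0.18, adjusted p = 3.1e-09) and 3.36-fold lower in M1 than in M0 (-1.75 ± 0.29, adjusted p = 1.3e-06). It was also lower in M2 than in M0 (-0.98 ± 0.25, adjusted p = 0.0016, but 0.0511 without M0 replicate 3 and M2 replicate 2). In GENCODE 29 a SOD2 locus shares 1141 exon bases with ACAT2 on the opposite strand, and SOD2 averaged 2039 CPM in M1, 171 in M2, 239 in M0 and 66.4 in Ctrl. The strand setting of the count is not known, so the ACAT2 values are uncertain.

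HMGCS1, the HMG-CoA synthase of the cytosol, lies at chr5:43289395-43313512 on the minus strand. It had 28.8, 30.9 and 27.7 CPM in M1, 19.9, 21.5 and 20.6 in M2, 16.8, 17.3 and 16.9 in M0, and 34.8, 32.2 and 28.9 in Ctrl. M1 overlapped Ctrl and lay above both other conditioned media. HMGCS1 was lower in M0 than in Ctrl (log2 -0.91 ± 0.08, adjusted p = 1.53e-07) and in M2 than in Ctrl (-0.63 ± 0.08, adjusted p = 4.81e-06), and did not pass in M1 (-0.13 ± 0.09, adjusted p = 0.143, but 0.0399 without Ctrl replicate 3). M1 was 1.71-fold above M0 (adjusted p = 2.26e-06) and 1.41-fold above M2 (adjusted p = 0.000243). The rise of M2 over M0 (0.28 ± 0.04, adjusted p = 0.0247) was lost without any of M0 replicate 1, M0 replicate 3, M2 replicate 2 or M2 replicate 3, with adjusted p up to 0.186.

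The kinases and the decarboxylase that follow were all lower than in fresh medium. MVK, mevalonate kinase, had 8.60, 6.27 and 9.27 CPM in M1, 8.98, 9.12 and 8.26 in M2, 10.5, 10.3 and 12.02 in M0, and 16.3, 15.04 and 18.9 in Ctrl. PMVK, the next kinase, had 28.99, 21.6 and 27.5 CPM in M1, 40.3, 35.6 and 34.5 in M2, 42.0, 42.4 and 45.8 in M0, and 49.2, 52.4 and 56.4 in Ctrl. MVD, which forms isopentenyl pyrophosphate, had 6.01, 3.90 and 6.06 CPM in M1, 5.78, 5.99 and 6.402 in M2, 4.52, 4.61 and 6.45 in M0, and 9.80, 8.81 and 11.4 in Ctrl. In each of these genes every conditioned library lay below every Ctrl library, and M1 replicate 2 was the lowest M1 library. PMVK fell further in M1 than in M0 (log2 -0.74 ± 0.14, adjusted p = 2.64e-05) and than in M2 (-0.50 ± 0.15, adjusted p = 0.00145). Its call in M0 against Ctrl (-0.28 ± 0.07, adjusted p = 0.0236) was lost without Ctrl replicate 3, M0 replicate 1 or M0 replicate 2, with adjusted p up to 0.0866.

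MVK was lower in M1 than in M0 (log2 -0.44 ± 0.19, adjusted p = 0.013), a call lost without M0 replicate 3 (adjusted p = 0.0858) or M1 replicate 2 (0.0607). In M2 against M0 neither MVK nor PMVK passed, but both did without M1 replicate 2 and with M2 and M0 libraries fitted alone, with adjusted p down to 0.0392 for MVK and 0.0336 for PMVK. MVK shares exon bases with MMAB on the opposite strand. MVD did not differ beyond the threshold between conditioned media, with adjusted p of 0.874 in M1 against M0, 0.401 in M2 against M0 and 0.468 in M1 against M2. ACLY, which makes cytosolic acetyl-CoA from citrate, averaged 266 ± 8.61 CPM in M1, 262 ± 4.25 in M2, 252 ± 5.64 in M0 and 371 ± 15.3 in Ctrl (SD, n = 3). It fell by a like amount in each conditioned medium, by log2 0.48 in M1, 0.50 in M2 and 0.56 in M0, and no pair of conditioned media passed the test.

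Of the isoprenoid steps, IDI1 and FDPS fell and GGPS1 rose in each conditioned medium against Ctrl. IDI1, which isomerizes isopentenyl pyrophosphate, had 28.2, 34.8 and 28.9 CPM in M1, 21.7, 22.2 and 21.9 in M2, 25.0, 23.4 and 25.8 in M0, and 43.2, 41.5 and 42.8 in Ctrl. M1 libraries lay between the other conditioned media and Ctrl, with no overlap. IDI1 fell by log2 0.47 in M1, 0.96 in M2 and 0.78 in M0 against Ctrl, and was higher in M1 than in M0 (0.31 ± 0.10, adjusted p = 0.00584) and in M2 (0.48 ± 0.10, adjusted p = 0.000389).

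FDPS, farnesyl pyrophosphate synthase, averaged 85.3 ± 7.16 CPM in M1, 80.4 ± 4.80 in M2, 106 ± 18.2 in M0 and 142 ± 3.95 in Ctrl (SD, n = 3). M0 replicate 3, at 127 CPM, was above the other M0 libraries, at 96.5 and 94.0. FDPS was lower in M1 than in M0 by log2 -0.31 ± 0.15 (adjusted p = 0.0152), and that call was lost without M0 replicate 3, M1 replicate 1 or M1 replicate 3 (adjusted p = 0.13, 0.0534 and 0.0793). The fall of M2 below M0 (-0.40 ± 0.15, adjusted p = 0.00997) was also lost without M0 replicate 3, with adjusted p up to 0.17.

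GGPS1, which makes geranylgeranyl pyrophosphate for protein prenylation and stands off the route to sterols, had 44.1, 45.3 and 46.1 CPM in M1, 45.6, 48.3 and 49.9 in M2, 44.8, 48.6 and 43.7 in M0, and 27.9, 30.01 and 29.9 in Ctrl. The conditioned media overlapped one another and all lay above Ctrl. It was 1.54-fold higher in M1 (adjusted p = 5.51e-07), 1.64-fold in M2 (adjusted p = 1.8e-07) and 1.56-fold in M0 (adjusted p = 7.7e-07). In GENCODE 29 a TBCE locus shares 1422 exon bases with GGPS1 on the same strand, and TBCE averaged 22.3 CPM in M1, 21.8 in M2, 25.8 in M0 and 36.9 in Ctrl, so reads may have been split between them.

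The squalene steps separated SQLE from its neighbours. FDFT1, squalene synthase, had 31.0, 30.1 and 31.6 CPM in M1, 29.9, 29.9 and 27.1 in M2, 37.9, 39.2 and 43.5 in M0, and 61.7, 59.5 and 65.6 in Ctrl. It was 2.01-fold lower in M1 (adjusted p = 6e-09), 2.15-fold lower in M2 (adjusted p = 3.6e-09) and 1.55-fold lower in M0 (adjusted p = 1.97e-06) than in Ctrl. M1 and M2 both lay below M0, by log2 -0.38 ± 0.06 (adjusted p = 0.000499) and -0.47 ± 0.08 (adjusted p = 0.00099). SQLE, squalene epoxidase, a rate-limiting oxygen-dependent step, had 177, 188 and 174 CPM in M1, 122, 126 and 121 in M2, 127, 125 and 131 in M0, and 147, 116 and 112 in Ctrl.

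SQLE was thus above all other libraries in M1, and Ctrl replicate 1 was the highest of the rest. It was 1.44-fold higher in M1 than in Ctrl (adjusted p = 4.41e-05), 1.41-fold than in M0 (adjusted p = 0.00018) and 1.46-fold than in M2 (adjusted p = 0.000158). It did not pass in M2 (log2 -0.02 ± 0.12, adjusted p = 0.831) or M0 (0.03 ± 0.12, adjusted p = 0.79) against Ctrl. Without Ctrl replicate 1 the M0 value was 0.14 (adjusted p = 0.038).

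LSS, lanosterol synthase, which closes the sterol rings, had 60.7, 45.4 and 60.9 CPM in M1, 41.4, 39.7 and 43.7 in M2, 44.1, 40.3 and 44.6 in M0, and 74.8, 71.4 and 76.7 in Ctrl. Every conditioned library was below Ctrl, and M1 replicate 2 lay close to the M0 range while the other M1 libraries stood well above it. LSS fell by log2 0.42 in M1, 0.84 in M2 and 0.79 in M0 against Ctrl. It was higher in M1 than in M0 (0.37 ± 0.15, adjusted p = 0.00416) and in M2 (0.42 ± 0.15, adjusted p = 0.00324).

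**Figure D3:**
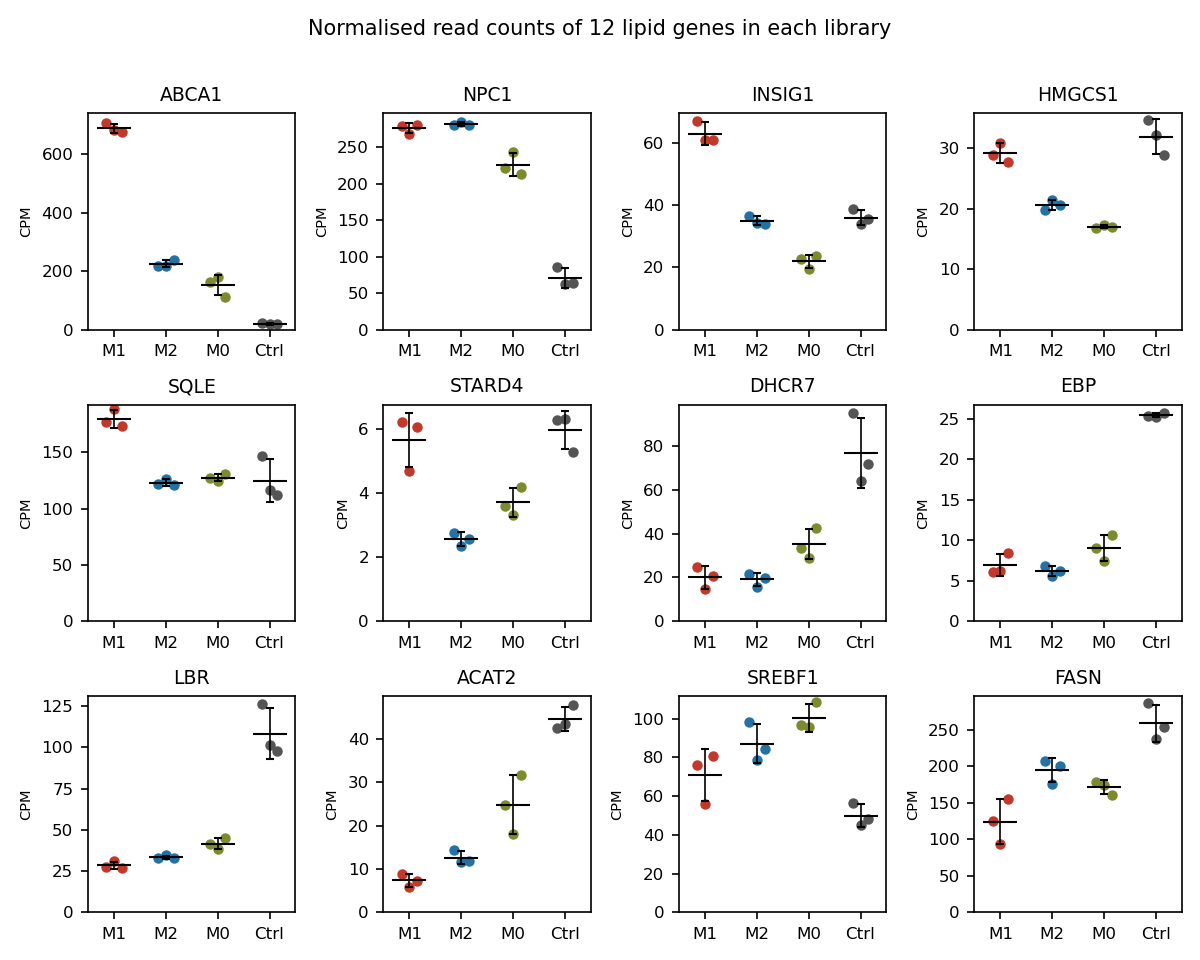
Normalised read counts (CPM, y axes from 0) of 12 lipid genes in every library, with M1, M2, M0 and Ctrl from left to right. Points are single libraries, and horizontal marks with bars are the mean and SD of 3. ABCA1 sits between 676 and 705 CPM in M1 and between 17.6 and 23.1 in Ctrl, DHCR7, EBP and LBR are lower in every conditioned library than in Ctrl, and INSIG1 is lowest in M0.

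The last part of the pathway, from lanosterol to cholesterol, held the deepest falls among the enzymes beside ACAT2. Of 9 enzymes, 5 fell and SC5D rose in M1 and in M0 against Ctrl, and 6 fell and SC5D rose in M2. The share called was 66.7% in M1, 77.8% in M2 and 66.7% in M0, beside 70.2%, 66.5% and 61.7% of all genes. HSD17B7, the 3-keto-sterol reductase, had 0.609, 0.768 and 0.764 CPM in M1, 0.678, 0.674 and 0.680 in M2, 0.810, 0.838 and 0.981 in M0, and 3.47, 3.15 and 2.94 in Ctrl. It rested on 76 reads in M1, 63 in M2, 70 in M0 and 340 in Ctrl. HSD17B7 was 4.48-fold lower in M1 (adjusted p = 1.77e-08), 4.70-fold in M2 (adjusted p = 2.52e-08) and 3.63-fold in M0 (adjusted p = 2.14e-07) than in Ctrl, and no pair of conditioned media passed.

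EBP, the sterol isomerase, had 6.11, 6.21 and 8.43 CPM in M1, 6.81, 5.57 and 6.15 in M2, 9.01, 7.45 and 10.7 in M0, and 25.3, 25.2 and 25.7 in Ctrl. Ctrl stood far above all conditioned libraries, and M1 overlapped M0. EBP was 3.67-fold lower in M1 (adjusted p = 6.32e-09), 4.10-fold in M2 (adjusted p = 4.66e-09) and 2.80-fold in M0 (adjusted p = 1.55e-07) than in Ctrl. Its call in M1 against M0 (log2 -0.39 ± 0.21, adjusted p = 0.0297) was lost without Ctrl replicate 2 or 3, M0 replicate 1 or 3, or M1 replicate 1 or 2, with adjusted p up to 0.211 for 1 library left out, and at 0.0859 with M1 and M0 libraries fitted alone. The call in M2 against M0 (-0.55 ± 0.17, adjusted p = 0.0127) was lost without M0 replicate 3 or M2 replicate 2, with adjusted p up to 0.255 when both were left out.

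DHCR7, the 7-dehydrocholesterol reductase that ends the Kandutsch-Russell branch, lies at chr11:71428193-71452868 on the minus strand. It had 24.5, 14.5 and 20.8 CPM in M1, 21.7, 15.8 and 19.5 in M2, 33.6, 29.01 and 42.6 in M0, and 94.9, 63.8 and 71.8 in Ctrl. M1 and M2 overlapped and both lay below M0, which lay below Ctrl. DHCR7 was 3.85-fold lower in M1 (log2 -1.94 ± 0.28, adjusted p = 2.03e-07), 4.04-fold in M2 (-2.01 ± 0.22, adjusted p = 2e-07) and 2.19-fold in M0 (-1.13 ± 0.23, adjusted p = 7.45e-05) than in Ctrl. It was lower in M1 than in M0 (-0.81 ± 0.28, adjusted p = 0.00224) and in M2 than in M0 (-0.88 ± 0.21, adjusted p = 0.0048, but 0.136 without M0 replicate 3 and M2 replicate 2).

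LBR, which joins a sterol C14 reductase to a lamin-binding protein of the inner nuclear membrane, had 27.2, 31.2 and 26.9 CPM in M1, 33.0, 34.5 and 32.8 in M2, 41.2, 38.5 and 45.1 in M0, and 126, 101 and 97.7 in Ctrl. The groups did not overlap. LBR was 3.81-fold lower in M1 (adjusted p = 1.07e-10), 3.24-fold in M2 (adjusted p = 6.81e-10) and 2.60-fold in M0 (adjusted p = 7.91e-09) than in Ctrl, and lower in M1 than in M0 (log2 -0.55 ± 0.09, adjusted p = 0.000239). Its call in M2 against M0 (-0.32 ± 0.07, adjusted p = 0.0263) was lost without M0 replicate 1 or 3 or without any 1 M2 library, with adjusted p up to 0.196. TM7SF2, the dedicated C14 reductase, averaged 0.434 ± 0.0831 CPM in M1, 0.623 ± 0.208 in M2, 0.305 ± 0.0934 in M0 and 0.473 ± 0.151 in Ctrl (SD, n = 3). TM7SF2 passed in no comparison, on 24 to 56 reads per group. Its value in M2 against M0 (log2 1.00 ± 0.35, adjusted p = 0.062) passed without Ctrl replicate 1 or M2 replicate 1, with adjusted p down to 0.0304. LBR in M1 against M2 (-0.23 ± 0.07, adjusted p = 0.0783) passed without Ctrl replicate 1 or M1 replicate 2 and with M1 and M2 libraries fitted alone, with adjusted p down to 0.0274.

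MSMO1, the C4 methyl sterol oxidase, had 18.9, 20.2 and 21.0 CPM in M1, 13.9, 16.2 and 14.9 in M2, 17.9, 17.2 and 18.4 in M0, and 32.6, 26.5 and 27.9 in Ctrl. All conditioned libraries lay below Ctrl, with M1 highest and M2 lowest among them. It fell by log2 0.53 in M1, 0.95 in M2 and 0.70 in M0 against Ctrl, and M1 was above M2 (0.42 ± 0.08, adjusted p = 0.00273). M2 against M0 (-0.25, adjusted p = 0.059) passed without Ctrl replicate 1 (0.0318), with M2 and M0 libraries fitted alone (0.0469), and with all libraries by DESeq2 (0.0462) and by limma (0.0477). NSDHL, which works in the same demethylation, averaged 42.8 ± 1.04 CPM in M1, 36.5 ± 0.678 in M2, 39.7 ± 1.54 in M0 and 42.2 ± 2.01 in Ctrl (SD, n = 3). It was lower in M2 than in Ctrl by log2 -0.21 ± 0.04 (adjusted p = 0.00852), higher in M1 than in M2 by 0.23 ± 0.03 (adjusted p = 0.0115), and passed in no other comparison.

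SC5D, the sterol C5 desaturase, went the other way from its neighbours, at 51.1 ± 2.61 CPM in M1, 42.5 ± 3.44 in M2, 40.7 ± 3.25 in M0 and 27.3 ± 1.85 in Ctrl (SD, n = 3). It was 1.86-fold higher in M1 (adjusted p = 1.05e-07), 1.55-fold in M2 (adjusted p = 6.54e-06) and 1.48-fold in M0 (adjusted p = 2.68e-05) than in Ctrl. The rise of M1 over M2 (log2 0.27 ± 0.08, adjusted p = 0.0204) was lost without M1 replicate 2, M2 replicate 1 or M2 replicate 3, with adjusted p up to 0.0817. CYP51A1, the lanosterol demethylase, was read little, at 1.22, 0.384 and 1.77 CPM in M1, 2.14, 2.09 and 1.93 in M2, 1.45, 2.10 and 2.14 in M0, and 1.85, 1.41 and 2.03 in Ctrl. M1 replicate 2 was lowest, with 12 reads. CYP51A1 passed in no comparison, but without M1 replicate 3, or with no filter on low counts, it was called lower in M1 than in each other group, with adjusted p down to 0.00242 against M2, 0.0124 against M0 and 0.0113 against Ctrl. Against M2 (log2 -0.84, adjusted p = 0.0619) it also passed with a replicate block (0.0412), by DESeq2 (0.0467) and by limma (0.0373), and against M0 by limma (0.0465). GENCODE 29 places another gene over its exons on the same strand, so its level is uncertain.

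Regulators of the pathway moved in both directions. Against Ctrl, 4 of 5 rose and SCAP fell in M1, 3 rose and SCAP fell in M2, and 2 rose and 2 fell in M0, where 70.2%, 66.5% and 61.7% of all genes were called in M1, M2 and M0. SREBF1, which encodes the SREBP-1 proteins, had 76.2, 55.9 and 80.8 CPM in M1, 98.1, 78.7 and 84.4 in M2, 96.6, 95.9 and 108 in M0, and 56.6, 45.2 and 48.2 in Ctrl. M1 replicate 2 lay within the Ctrl range, and all other conditioned libraries lay above it. SREBF1 was 1.42-fold higher in M1 (log2 0.50 ± 0.19, adjusted p = 0.00191), 1.74-fold in M2 (0.80 ± 0.13, adjusted p = 3.78e-05) and 2.00-fold in M0 (1.00 ± 0.11, adjusted p = 4.87e-06) than in Ctrl, and lower in M1 than in M0 (-0.50 ± 0.17, adjusted p = 0.00324). Its value in M1 against M2 passed only without M1 replicate 3, with a replicate block or with no filter on low counts, among the settings run. SREBF1 shares exon bases with RAI1 on the opposite strand.

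SREBF2, whose product drives most cholesterol synthesis genes, had 105, 85.0 and 104 CPM in M1, 94.3, 85.5 and 92.1 in M2, 109, 95.1 and 115 in M0, and 83.3, 69.5 and 76.7 in Ctrl. Each conditioned library was above every Ctrl library, by small margins. SREBF2 was 1.28-fold higher in M1 (adjusted p = 0.00301), 1.18-fold in M2 (adjusted p = 0.0309) and 1.39-fold in M0 (adjusted p = 0.000427). The M2 call was lost without Ctrl replicate 2 or 3, M0 replicate 1, or M2 replicate 1 or 3, with adjusted p up to 0.181. SREBF2 in M2 against M0 (log2 -0.23, adjusted p = 0.0844) passed with a replicate block (0.0171), with no filter on low counts (0.0245), with M2 and M0 libraries fitted alone (0.0442), and without M0 replicate 2 (0.0339) or M1 replicate 2 (0.0421). SCAP, the escort of SREBP, averaged 42.2 ± 5.43 CPM in M1, 52.8 ± 2.32 in M2, 57.7 ± 3.74 in M0 and 68.7 ± 7.89 in Ctrl (SD, n = 3).

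SCAP fell by log2 0.70 in M1, 0.38 in M2 and 0.25 in M0 against Ctrl, and was lower in M1 than in M0 (-0.45 ± 0.12, adjusted p = 0.00127). The M0 call was lost without Ctrl replicate 1 or M0 replicate 1, with adjusted p up to 0.14. Its call in M1 against M2 (-0.32 ± 0.12, adjusted p = 0.0186) was lost without M1 replicate 2, M2 replicate 1 or M2 replicate 3, with adjusted p up to 0.0937.

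INSIG1, which retains SCAP in the endoplasmic reticulum and is itself an SREBP target, lies at chr7:155297776-155310235 on the plus strand. It had 67.3, 60.9 and 61.1 CPM in M1, 36.7, 34.5 and 34.0 in M2, 22.9, 19.5 and 23.6 in M0, and 38.7, 33.9 and 35.5 in Ctrl. M1 lay above Ctrl, M2 overlapped it and M0 lay below it. INSIG1 was 1.75-fold higher in M1 than in Ctrl (log2 0.81 ± 0.07, adjusted p = 2.54e-07) and 1.64-fold lower in M0 than in Ctrl (-0.71 ± 0.10, adjusted p = 2.71e-06), and did not pass in M2 (-0.04 ± 0.07, adjusted p = 0.679). Between media M1 was 2.86-fold above M0 (adjusted p = 1.37e-09) and 1.80-fold above M2 (adjusted p = 1e-06), and M2 was 1.59-fold above M0 (adjusted p = 0.000411). INSIG2, its SREBP-independent relative, averaged 18.4 ± 1.87 CPM in M1, 16.6 ± 0.525 in M2, 15.8 ± 0.827 in M0 and 13.7 ± 1.45 in Ctrl (SD, n = 3). INSIG2 rose in M1 (0.42 ± 0.12, adjusted p = 0.00103) and in M2 (0.27 ± 0.09, adjusted p = 0.0215) against Ctrl, and the M2 call was lost without Ctrl replicate 2 or 3 or M2 replicate 2, with adjusted p up to 0.119. Its value in M0 against Ctrl passed without Ctrl replicate 1 (adjusted p = 0.0444), and that in M1 against M0 passed without Ctrl replicate 1 or 3, M0 replicate 2 or M1 replicate 3, and under a filter of 1 CPM.

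In fatty acid synthesis ACACA and FASN fell in each conditioned medium, and SCD did not pass. ACACA, acetyl-CoA carboxylase, averaged 124 ± 7.99 CPM in M1, 117 ± 3.42 in M2, 122 ± 2.66 in M0 and 166 ± 16 in Ctrl (SD, n = 3). It fell by log2 0.42 in M1, 0.50 in M2 and 0.44 in M0 against Ctrl and passed between no pair of conditioned media. FASN, fatty acid synthase, had 125, 93.1 and 155 CPM in M1, 208, 176 and 200 in M2, 179, 175 and 161 in M0, and 286, 237 and 254 in Ctrl. All conditioned libraries lay below Ctrl, and M1 lay below M0 and M2 with the widest spread.

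FASN was 2.09-fold lower in M1 (log2 -1.06 ± 0.23, adjusted p = 3.55e-06), 1.33-fold in M2 (-0.41 ± 0.11, adjusted p = 0.0122) and 1.51-fold in M0 (-0.59 ± 0.09, adjusted p = 0.00118) than in Ctrl. M1 was below M0 (-0.47 ± 0.22, adjusted p = 0.00843) and below M2 (-0.65 ± 0.22, adjusted p = 0.00167). The M2 call against Ctrl was lost without Ctrl replicate 1 or M2 replicate 2, with adjusted p up to 0.0638. SCD, the stearoyl-CoA desaturase, averaged 239 ± 1.66 CPM in M1, 226 ± 1.89 in M2, 252 ± 8.87 in M0 and 259 ± 41.2 in Ctrl (SD, n = 3). SCD passed in no comparison, and its value in M2 against Ctrl (log2 -0.19 ± 0.13, adjusted p = 0.0521) lay at the threshold and passed under 12 of the alternatives. In M2 against M0 (-0.16, adjusted p = 0.176) SCD passed without Ctrl replicate 1 (0.0196) and with M2 and M0 libraries fitted alone (0.0306).

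The carriers of cholesterol within the cell moved apart. NPC1, which releases cholesterol from lysosomes, had 279, 268 and 281 CPM in M1, 280, 285 and 281 in M2, 221, 243 and 213 in M0, and 85.8, 62.7 and 63.3 in Ctrl. Every conditioned library was far above Ctrl, and M1 and M2 overlapped. NPC1 was 3.90-fold higher in M1 (log2 1.96 ± 0.15, adjusted p = 1.16e-10), 3.98-fold in M2 (1.99 ± 0.15, adjusted p = 1.55e-10) and 3.19-fold in M0 (1.67 ± 0.16, adjusted p = 1.24e-09) than in Ctrl. The smaller rises over M0 in M1 (0.29 ± 0.06, adjusted p = 0.0186) and M2 (0.32 ± 0.06, adjusted p = 0.0241) were lost without M0 replicate 3, where the M1 value had an adjusted p of 0.0533. For M2 it was also lost without M0 replicate 1, M2 replicate 2 or M2 replicate 3, with adjusted p up to 0.214 over all alternatives. NPC1 shares 604 exon bases with RMC1 on the opposite strand, which averaged 50.2 CPM in M1, 52.8 in M2, 52.6 in M0 and 27.7 in Ctrl.

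STARD4, a cytosolic sterol carrier and an SREBP target, had 6.24, 4.70 and 6.06 CPM in M1, 2.77, 2.34 and 2.57 in M2, 3.61, 3.31 and 4.21 in M0, and 6.28, 6.33 and 5.28 in Ctrl. M1 overlapped Ctrl, and M2 and M0 lay below both. STARD4 was 2.32-fold lower in M2 than in Ctrl (log2 -1.22 ± 0.11, adjusted p = 3.34e-06) and 1.60-fold lower in M0 than in Ctrl (-0.68 ± 0.13, adjusted p = 0.000835), and did not pass in M1 (-0.07 ± 0.15, adjusted p = 0.659). M1 was 2.21-fold above M2 (adjusted p = 3.14e-05) and 1.53-fold above M0 (adjusted p = 0.00265). The fall of M2 below M0 (-0.53 ± 0.12, adjusted p = 0.0233) was lost without M0 replicate 1, M0 replicate 3, M2 replicate 2 or M2 replicate 3, with adjusted p up to 0.296.

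Levels between genes were compared as CPM per kb of exon. In Ctrl the highest were ACLY (71.0), SCD (48.2), PMVK (41.2), FDPS (38.3) and SQLE (29.03), and the lowest beside ABCG1 were TM7SF2 (0.139), CYP51A1 (0.492) and HSD17B7 (0.667). ABCA1 stood at 60.6 CPM per kb in M1, 19.8 in M2, 13.3 in M0 and 1.77 in Ctrl. That placed it at rank 1 of the 33 genes in M1, rank 8 in M2, rank 10 in M0 and rank 28 in Ctrl. NPC1 stood at 27.3 CPM per kb in M1, 27.9 in M2, 22.4 in M0 and 6.99 in Ctrl, while ACLY kept rank 2 in M1 and rank 1 in each other group.

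**Figure D4:**
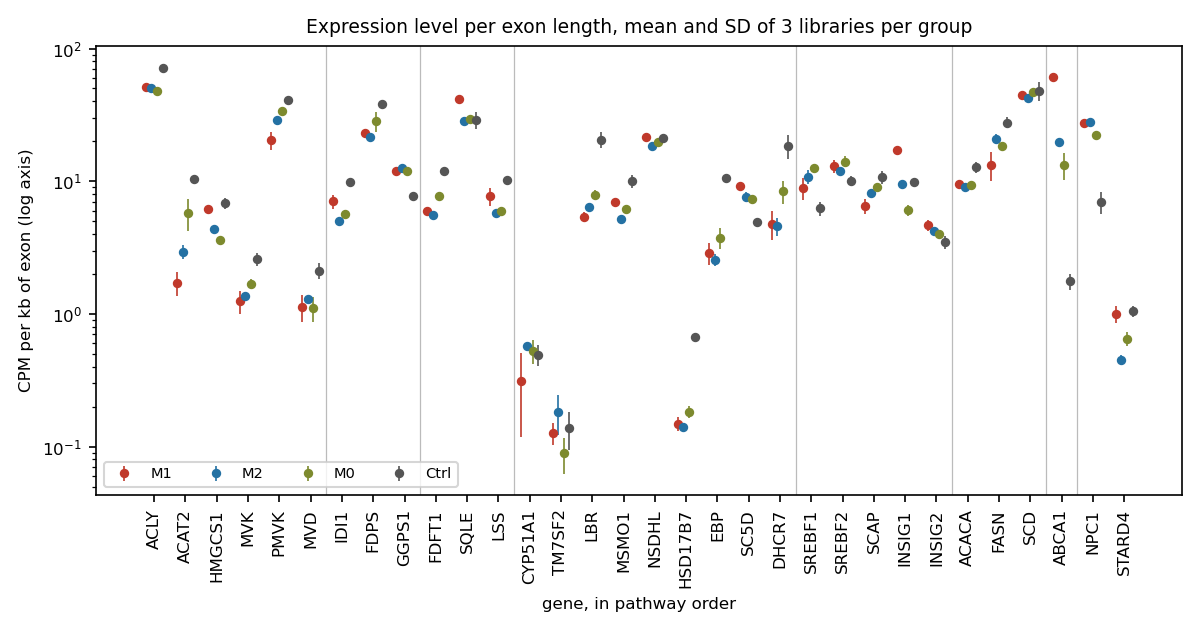
Level of 32 lipid genes as CPM per kb of exon (log y axis), in pathway order along the x axis, for M1, M2, M0 and Ctrl. Points are means and bars SD of 3 libraries. ABCA1 reaches 60.6 in M1, against 1.77 in Ctrl, and EBP and DHCR7 lie lower in all conditioned media than in Ctrl.

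Genes around the pathway, in 6 further lists of 68 genes of which 64 were tested, gave mixed counts. Against Ctrl, 15 rose and 29 fell in M1, 18 rose and 37 fell in M2, and 16 rose and 29 fell in M0. That is 68.8% of the 64 called in M1, 85.9% in M2 and 70.3% in M0, beside 70.2%, 66.5% and 61.7% of all genes in the same comparisons. Between media 12 rose and 18 fell in M1 against M0, 2 rose and 14 fell in M2 against M0, and 16 rose and 10 fell in M1 against M2, where 52.2%, 25.2% and 32.5% of all genes were called. The list of 11 further genes linked to liver X receptors held no gene of the set itself, and so left out SREBF1. SREBF1 had a log2 fold change of 0.50 in M1, 0.80 in M2 and 1.00 in M0 against Ctrl. The 11 listed genes did not share the size of the ABCA1 change. Against Ctrl, 3 of the 11 rose and 3 fell in M1, 5 rose and 3 fell in M2, and 4 rose and 3 fell in M0. The share called was 54.5% in M1, 72.7% in M2 and 63.6% in M0, below that of all genes in M1 and above it in M2 and M0. Their highest log2 fold change was 0.78 in M1 (RXRB), 1.00 in M2 (PLTP) and 0.81 in M0 (PLTP). The list holds the receptor genes NR1H2, NR1H3, RXRA and RXRB, and these made up most of the rises. RXRA and RXRB rose in each conditioned medium, NR1H2 in M2 and M0, and NR1H3 in none. RXRA had 51.2, 59.6 and 38.7 CPM in M0 and 38.1, 36.7 and 37.9 in Ctrl, so M0 replicate 3 lay barely above Ctrl. Beyond the receptors, PLTP alone of this list rose in M1 and in M0, and PLTP and ABCA2 rose in M2. PLTP, the phospholipid transfer protein, averaged 113 ± 20.9 CPM in M0 and 64.7 ± 3.38 in Ctrl (log2 0.81 ± 0.15, adjusted p = 6.55e-06). With 85.2 ± 7.54 CPM in M1 it was below M0 (-0.41 ± 0.17, adjusted p = 0.0035). ABCG2, a multidrug exporter, averaged 0.469 ± 0.0942 CPM in M0 and 1.44 ± 0.287 in Ctrl (-1.60 ± 0.22, adjusted p = 9.49e-05). SMPDL3A, a secreted phosphodiesterase, averaged 3.29 ± 0.374 CPM in M1 and 2.32 ± 0.210 in M0 (0.50 ± 0.12, adjusted p = 0.0149).

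Of 12 genes of fatty acid elongation and desaturation, 1 rose and 7 fell in M1, 1 rose and 10 fell in M2, and 1 rose and 7 fell in M0 against Ctrl. The share called was 66.7% in M1, 91.7% in M2 and 66.7% in M0, beside 70.2%, 66.5% and 61.7% of all genes. SCD5, a second desaturase, averaged 48.9 ± 4.50 CPM in M0 and 161 ± 17.1 in Ctrl (log2 -1.72 ± 0.12, adjusted p = 5.53e-10), and OXSM, of mitochondrial fatty acid synthesis, rose by 0.28 ± 0.06 in M0 over Ctrl (adjusted p = 0.00955). In M1 against M0 the elongase ELOVL6 was higher (0.40 ± 0.05, adjusted p = 0.000257) and the enoyl reductase TECR lower (-0.92 ± 0.30, adjusted p = 0.000539). Among 7 genes of acyl-CoA and NADPH supply, ACSL5 averaged 3.58 ± 0.436 CPM in M1 and 1.07 ± 0.0397 in M0 (1.74 ± 0.10, adjusted p = 6.52e-06), and the citrate carrier SLC25A1 averaged 31.3 ± 2.70 in M1 and 52.4 ± 3.31 in M0 (-0.74 ± 0.09, adjusted p = 3.8e-06). Against Ctrl, 1 of these 7 rose and 2 fell in M1, 1 rose and 5 fell in M2, and 1 rose and 3 fell in M0 (42.9%, 85.7% and 57.1% called, beside the same shares of all genes). In M0 ACSS2 was higher (0.64 ± 0.10, adjusted p = 4.74e-05) and ACSL3 lower (-0.26 ± 0.12, adjusted p = 0.0276).

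Of 11 genes that use isoprenoids, 2 rose and 7 fell in M1, 2 rose and 8 fell in M2, and 2 rose and 6 fell in M0 against Ctrl. The share called was 81.8% in M1, 90.9% in M2 and 72.7% in M0, beside 70.2%, 66.5% and 61.7% of all genes. COQ2, of ubiquinone synthesis, averaged 21.4 ± 0.475 CPM in M1 and 36.0 ± 3.59 in M0 (log2 -0.75 ± 0.09, adjusted p = 4.67e-06). PDSS2, also of ubiquinone synthesis, was lower in M0 than in Ctrl (-0.45 ± 0.07, adjusted p = 0.000221). Of 10 genes of SREBP processing and turnover, 3 rose and 3 fell in M1, 4 rose and 4 fell in M2, and 3 rose and 3 fell in M0 against Ctrl. The share called was 60% in M1, 80% in M2 and 60% in M0, beside the same 70.2%, 66.5% and 61.7% of all genes. MBTPS1, the site-1 protease that cuts SREBP, was higher in M1 than in M0 (0.31 ± 0.04, adjusted p = 0.000875) and UFD1 lower (-0.31 ± 0.05, adjusted p = 0.00102). In M0 against Ctrl, RNF139, a ubiquitin ligase of the endoplasmic reticulum, was higher (0.63 ± 0.06, adjusted p = 4.07e-07) and ERLIN2 lower (-0.65 ± 0.12, adjusted p = 1.93e-05).

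Genes of lipid storage and uptake moved in both directions: of 13 genes tested, 5 rose and 7 fell in each conditioned medium against Ctrl. That is 92.3% called, beside 70.2% of all genes in M1, 66.5% in M2 and 61.7% in M0. VLDLR, a receptor for triglyceride-rich lipoproteins, averaged 107 ± 5.08 CPM in M0 and 22.2 ± 2.64 in Ctrl (log2 2.26 ± 0.10, adjusted p = 9.97e-12). LIPA, the lysosomal acid lipase, averaged 32.3 ± 3.15 CPM in M0 and 65.2 ± 4.2 in Ctrl (-1.01 ± 0.10, adjusted p = 3.46e-08). PLIN2, which coats lipid droplets, averaged 343 ± 41.3 CPM in M1 and 187 ± 14 in M0 (0.87 ± 0.12, adjusted p = 1.65e-06). TMEM97, an NPC1-binding protein, averaged 13.5 ± 0.886 CPM in M1 and 20.3 ± 0.621 in M0 (-0.59 ± 0.06, adjusted p = 8.64e-05).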

How the data were processed

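RNA of 12 samples was sequenced as stranded mRNA libraries in single reads of 50 nt over 2 runs, per the labels' protocols. STAR 2.5.4b, Bowtie2 2.2.3, Trimmomatic 0.36, FastQC 0.11.7, DESeq2 1.20.0 and build hg38 appear in the submitters' processing notes. Not given in the sources used here were the counting tool, strand setting and annotation, so reads of overlapping genes cannot be told apart. The authors deposited raw counts per gene, used in every test, and variance-stabilized log2 values, used in 1 alternative. Genes were matched to GENCODE release 29 (GRCh38, 58025 identifiers) for exon length and position, and promoters to RefSeq (GRCh38.p14).

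Counts of all 12 libraries were fitted together with edgeR 4.0.16 in R 4.3.3 (group means, TMM, filterByExpr with a minimum count of 10 and total of 15, quasi-likelihood F test, Benjamini-Hochberg adjustment over 14088 genes at 0.05). The common biological coefficient of variation was 0.0831, and the procedure was tested on simulated data. SE comes from the spread of log2 CPM (prior count 2) over 3 and 3 libraries, another estimate than the fitted fold change. A count of 0 allows 3 counts, which covers counting error only. Replicates differed by more than sampling noise, so all were kept. Alternatives were other scalings, filters, tests (DESeq2 1.42.0, limma 3.58.1), a replicate block, 2 groups alone and leaving out libraries. The genes, lists and naming rules were chosen with earlier results of these data known. Per-library values are given for genes called with at least a 1.5-fold change in M0 over Ctrl or between conditioned media, and for SREBF1, SREBF2, INSIG1, ABCA1 and ABCG1. Those of SQLE, CYP51A1 and, for some groups only, FDPS, RXRA and TECR were added after their values were seen. From each further list the most raised and most lowered called gene in M1 against M0 and in M0 against Ctrl is named. NR1H2, NR1H3, RXRA, RXRB and ABCA2 were named as well after their values were seen. The 5 genes most like ABCA1 were ranked by Pearson r of log2 CPM.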

Additional observations from a re-analysis of the deposited data

How the results depend on the processing

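The 192 results for single genes of the set (32 genes in 6 comparisons) were recomputed under 21 settings, 4026 values, since TM7SF2 had none under a filter of 1 CPM: 3903 kept direction and side of the threshold, 70 lost their call, 53 gained one and 0 called values changed sign. Of the 70, 29 were in M2 against M0. That comparison alone had counts that moved by over 1.5 times. Genes called over the whole table were 3553 and ran from 1595 to 4210 with 1 library left out (M0 replicate 3 out, 1595; M2 replicate 3 out, 1905; M2 replicate 2 out, 1933), and were 520 with M0 replicate 3 and M2 replicate 2 out together. Genes of the set called were 11 and ran from 5 to 14, and were 3 with those libraries out together. Deviations of same-numbered samples correlated weakly, at -0.077 to 0.154, over 0.1 in 6 of 18 pairs. Among differently numbered samples, M0 replicate 3 with M2 replicate 1 alone exceeded 0.1, at 0.206. A weak effect shared by samples of the same number is therefore possible, and the main fit did not model it. With a replicate block, 20 genes of the set were called in M1 against M0, 12 in M2 against M0, 16 in M1 against M2, 26 in M0 against Ctrl, 26 in M1 against Ctrl, 28 in M2 against Ctrl and 23 in the joint test. Depth limits ABCG1, TM7SF2, CYP51A1 and HSD17B7, which had 5 to 654 reads in all. The genes of the 6 further lists were not recomputed under these settings.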

Other observations

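The genes whose pattern over the 12 libraries was most like that of ABCA1, among 14083 ranked, were AMIGO2 (Pearson r = 0.996), PNPLA8 (0.995), EFR3A (0.994), SGK1 (0.994) and APLF (0.994). These are descriptions over libraries that fall into 4 groups, and they carry no test. No gene of the set was among those 5.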
